A study of Mus musculus with 18 samples.

Results

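Solute carriers are the membrane proteins that move amino acids, sugars, vitamins, metals, other ions and metabolites across the cell surface and across the membranes of organelles. The genes described here are those whose symbol is Slc followed by a digit, each read by a probe set with 1 symbol, and, where a gene had several, by that of the highest mean across all 18 arrays. Slc2a1, Slc2a3, Slc7a2, Slc11a1, Slc11a2, Slc16a1, Slc16a3, Slc26a3 and Slc40a1 were left out. A gene was kept if its mean log2 value was 6 or more in at least 1 of the 6 groups, and 87 of 356 genes were. The level in the groups therefore chose the members, and 6 is a chosen level, not a measured limit of detection. Of the 87, 70 also averaged 6 or more over all 18 arrays, a value that does not use the differences between groups. Of those, 56 reached 6 in all 6 groups. Tests are given for the 70 only. The other 17 passed through their highest groups alone, so their values are given as a description.

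Numbered families group carriers of similar sequence, and they work in many places. Carriers of the plasma membrane take up nutrients, those of the mitochondrial inner membrane exchange metabolites with the cytosol, and those of lysosomes export the products of digestion. Dendritic cells and macrophages of the gut take up and digest large amounts of material, so lysosomal carriers for nucleosides, peptides and heme work on the path along which antigen and nucleic acids are sensed. Several amino acid exchangers of family 7 work as pairs of a light chain with the shared heavy chain Slc3a2, itself of family 3. Of the 87 members, 3 carry the name without being carriers: Slc9a3r1 and Slc9a3r2 are scaffold proteins that bind transporters, and Slc7a6os is a gene on the strand opposite Slc7a6.

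The cells came from the colon lamina propria of BALB/c mice aged 8 weeks, and were sorted from MHC+CD11chigh cells into a CD103+CD11b-, a CD103+CD11b+ and a CD103-CD11b+ subset. For every subset there are mice whose labels name no treatment, here called untreated, and mice that received dextran sulfate sodium at 2%, abbreviated DSS, which damages the lining of the colon and causes colitis. Each of the 6 groups has 3 arrays: experiments 1 to 3 are untreated, experiments 4 to 6 are DSS, and each experiment holds 1 array of every subset. Values are listed below in the order of the experiments. No experiment holds both conditions, so DSS and untreated cells were compared between experiments and not within them. How many animals lie behind an array is not in the labels, nor is whether the experiments used separate animals. The p-values therefore reflect only the scatter among these arrays, which may be technical. Values are on the log2 scale, where a difference of 1 is a doubling. With this number of arrays, a difference of 2 group means had a median standard error of 0.166.

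The sort genes followed the labels. In untreated cells Itgae, which encodes CD103, differed by 3.01 ± 0.13 between CD103+CD11b- and CD103-CD11b+ cells, and Itgam, which encodes CD11b, by -2.79 ± 0.20. All 9 markers of type 1 conventional dendritic cells (cDC1) were called higher in the CD103+CD11b- subset than in the CD103-CD11b+ subset, and all 9 markers of type 2 cells (cDC2) lower. The cDC1 list includes Itgae and the cDC2 list Itgam, whose differences the sort itself fixed. Between these subsets of untreated mice, 10.3% of all genes tested and 18.1% of those with a mean of 6 or more were called. The mean of the 11 macrophage markers tested lay between 5.52 and 5.77 on the untreated CD103+CD11b- arrays, between 6.30 and 6.51 on the CD103+CD11b+ arrays and between 7.18 and 7.86 on the CD103-CD11b+ arrays, and 9 of the 11 reached 6 somewhere. The 14 epithelial markers, which these cells should lack, averaged 7.94 to 8.74 on the untreated and 7.64 to 8.34 on the DSS arrays, and none of them stayed under 6. In the order CD103+CD11b-, CD103+CD11b+ and CD103-CD11b+, the 6 monocyte markers tested averaged 8.40, 8.56 and 9.11 in untreated cells. The 6 B and plasma cell markers tested averaged 7.32, 7.51 and 7.47. The 8 neutrophil markers tested averaged 4.46, 4.53 and 4.81 in untreated and 5.26, 5.33 and 5.39 in DSS cells. The part of these other cells in the members' differences was not tested. In sorted bulk cells, fewer cells of a type and less RNA per cell cannot be told apart.

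By what they carry, the 87 members are 17 genes for amino acids and amines, 16 for metals, 16 mitochondrial carriers, 9 for inorganic ions, 9 for nucleotide sugars and acetyl-CoA, 6 for sugars and carboxylates, 5 for vitamins and choline, 3 for organic ions and lipids, 1 for nucleosides, 1 for peptides, Slc49a4 and the 3 that are not carriers. Just inside the level of 6 were Slc25a45, whose highest group mean was 6.01, Slc5a3 at 6.07 and Slc7a7 at 6.08. Just outside were Slc25a12 at 5.99, Slc25a17 at 5.98 and Slc35c2 at 5.97. Of the members 7 had several probe sets, and in Slc25a36 and Slc44a1 the probe set used and the other one correlated at 0.01 over the 18 arrays. In Slc25a5 the correlation with its other probe sets was -0.16 and 0.44, and in the other 4 members it lay between 0.33 and 0.53. The median distance between a member's highest and lowest group mean was 0.51 on the log2 scale over the 70 members and 0.43 over all 5381 genes with a mean of 6 or more.

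**Figure D1:**
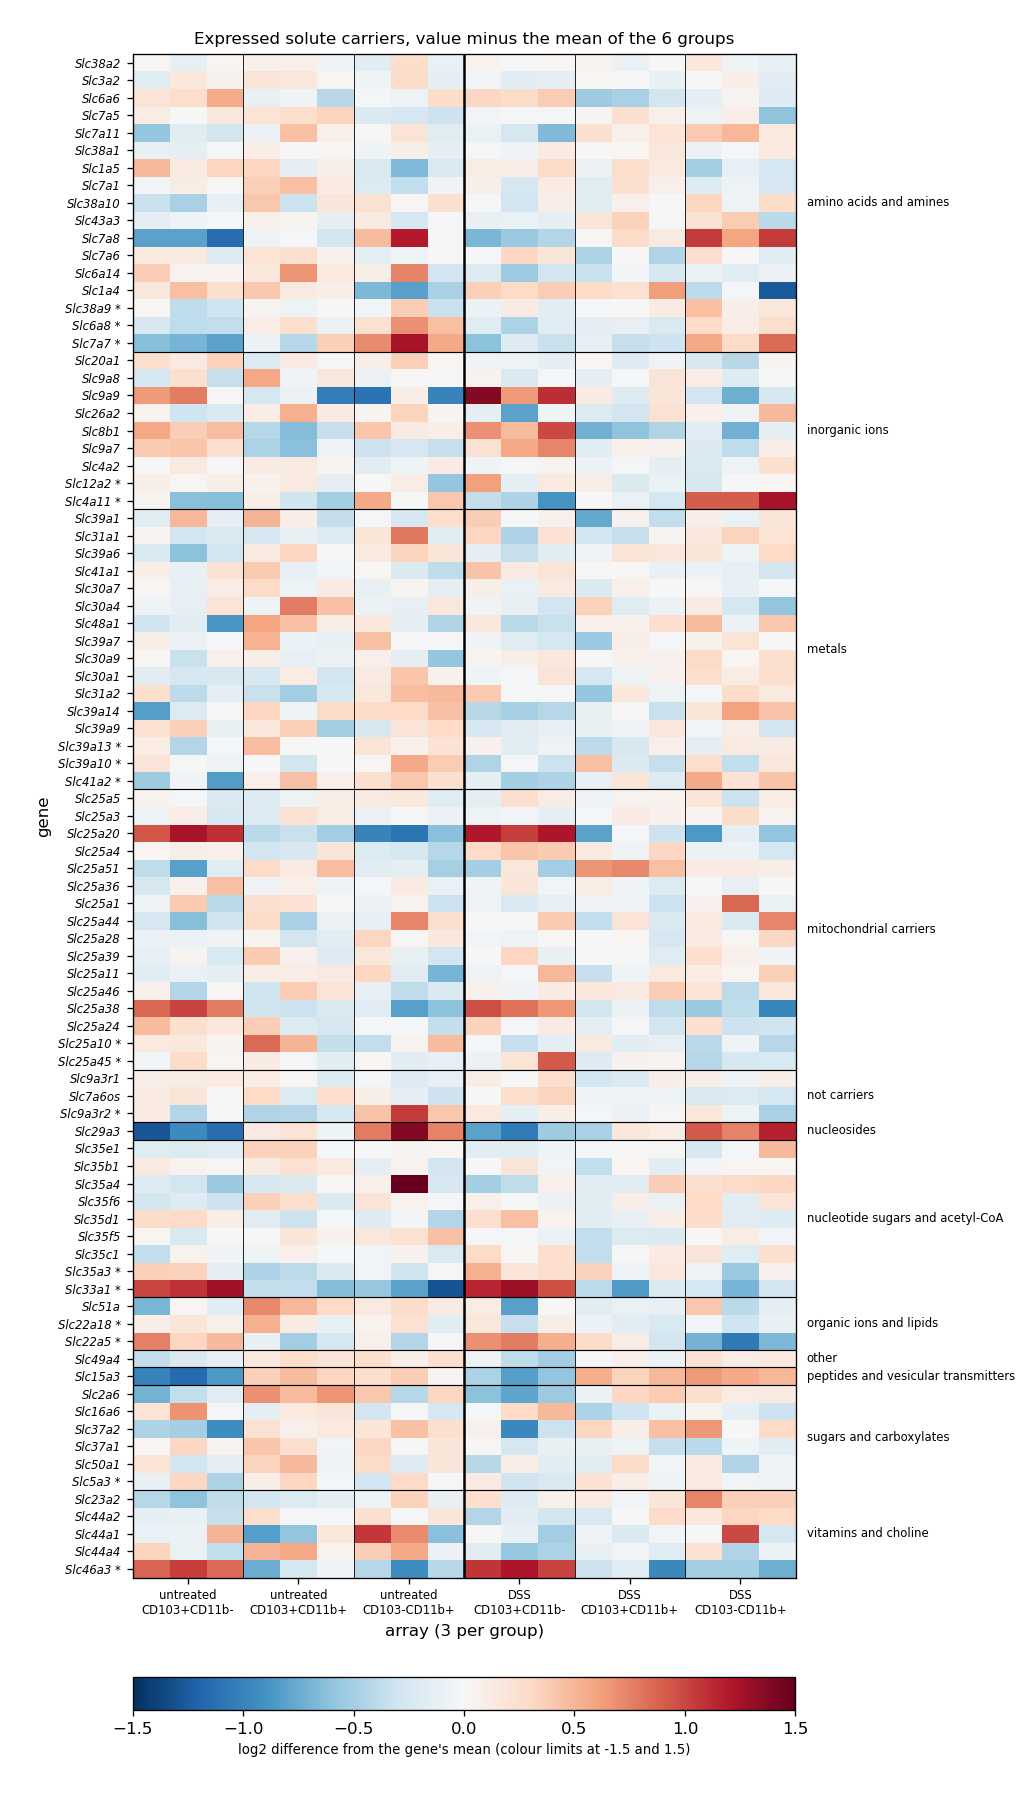
Heat map of the 87 members (rows, grouped by what they carry) on the 18 arrays (columns, 3 per group), where colour is the log2 value minus the gene's mean over the 6 groups, red above and blue below; an asterisk marks the 17 members with a mean under 6. Slc25a20, Slc25a38 and Slc33a1 are red in all 6 CD103+CD11b- arrays, and Slc29a3 and Slc15a3 are blue there.

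The largest differences lay between CD103+CD11b- cells and the CD11b+ subsets. Higher in the untreated CD103+CD11b- subset than in the CD103-CD11b+ subset were mitochondrial carriers for acylcarnitine and glycine, neutral amino acid carriers of family 1 and organelle proton exchangers, and lower were the lysosomal carriers Slc29a3 and Slc15a3, the amino acid exchanger Slc7a8 and, of the zinc importers, Slc39a14 and Slc39a6. A member was called where limma's adjusted p, by Benjamini-Hochberg over all 14003 genes tested, was under 0.05. Of the 70 members, 14 were called in this comparison, 6 higher and 8 lower, or 20%, against 18.1% of the genes with a mean of 6 or more (9.31% higher, 8.83% lower) and 10.3% of all genes tested. Between CD103+CD11b- and CD103+CD11b+ cells 15 were called, 5 higher and 10 lower, or 21.4% against 12.2% (4.74% higher, 7.45% lower; 6.86% of all genes). Between CD103+CD11b+ and CD103-CD11b+ cells 6 were called, 3 each way, or 8.57% against 7.23% (4.42% higher, 2.81% lower; 4.11% of all genes). These comparisons share arrays. Every difference below is the first-named subset minus the second, and DSS minus untreated.

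In DSS cells the same 3 comparisons called 16 members (7 higher, 9 lower), 8 (4 and 4) and 2 (1 and 1). The shares were 22.9% against 14.3% of the genes with a mean of 6 or more (6.95% higher, 7.4% lower; 8.53% of all genes), 11.4% against 10.4% (6.15% higher, 4.26% lower; 5.96%) and 2.86% against 2.75% (0.706% higher, 2.04% lower; 1.58%). Across the 6 groups the F test called 21 members, 30% against 24.8% (14.7% of all genes). Groups did not overlap, in the same order of comparisons, in 29, 27 and 15 of the 70 members in untreated mice. Of the genes with a mean of 6 or more, 33.7%, 31.9% and 24% did not overlap. After DSS the groups did not overlap in 26, 26 and 15 of the 70 members, against 35.7%, 32.5% and 21.5% of those genes. The members' share was above that of the genes in the first and second comparison of each condition, and not in the third. Only Slc29a3 was called in all 6 subset comparisons, 44 of the 70 members in none. Leaving out 1 array at a time gave 10 to 13 calls in the first untreated comparison, 9 to 12 in the second and 0 to 6 in the third, with 0 without untreated CD103-CD11b+ replicate 2. For DSS cells the ranges were 11 to 15, 6 to 9 and 0 to 2, with 0 in the third without DSS CD103+CD11b+ replicate 4. With array quality weights the second DSS comparison had 14 calls and the third untreated one 1. In fits on only the groups compared, the first untreated comparison had 9 calls, the third untreated 1 and the third DSS 1.

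**Figure D2:**
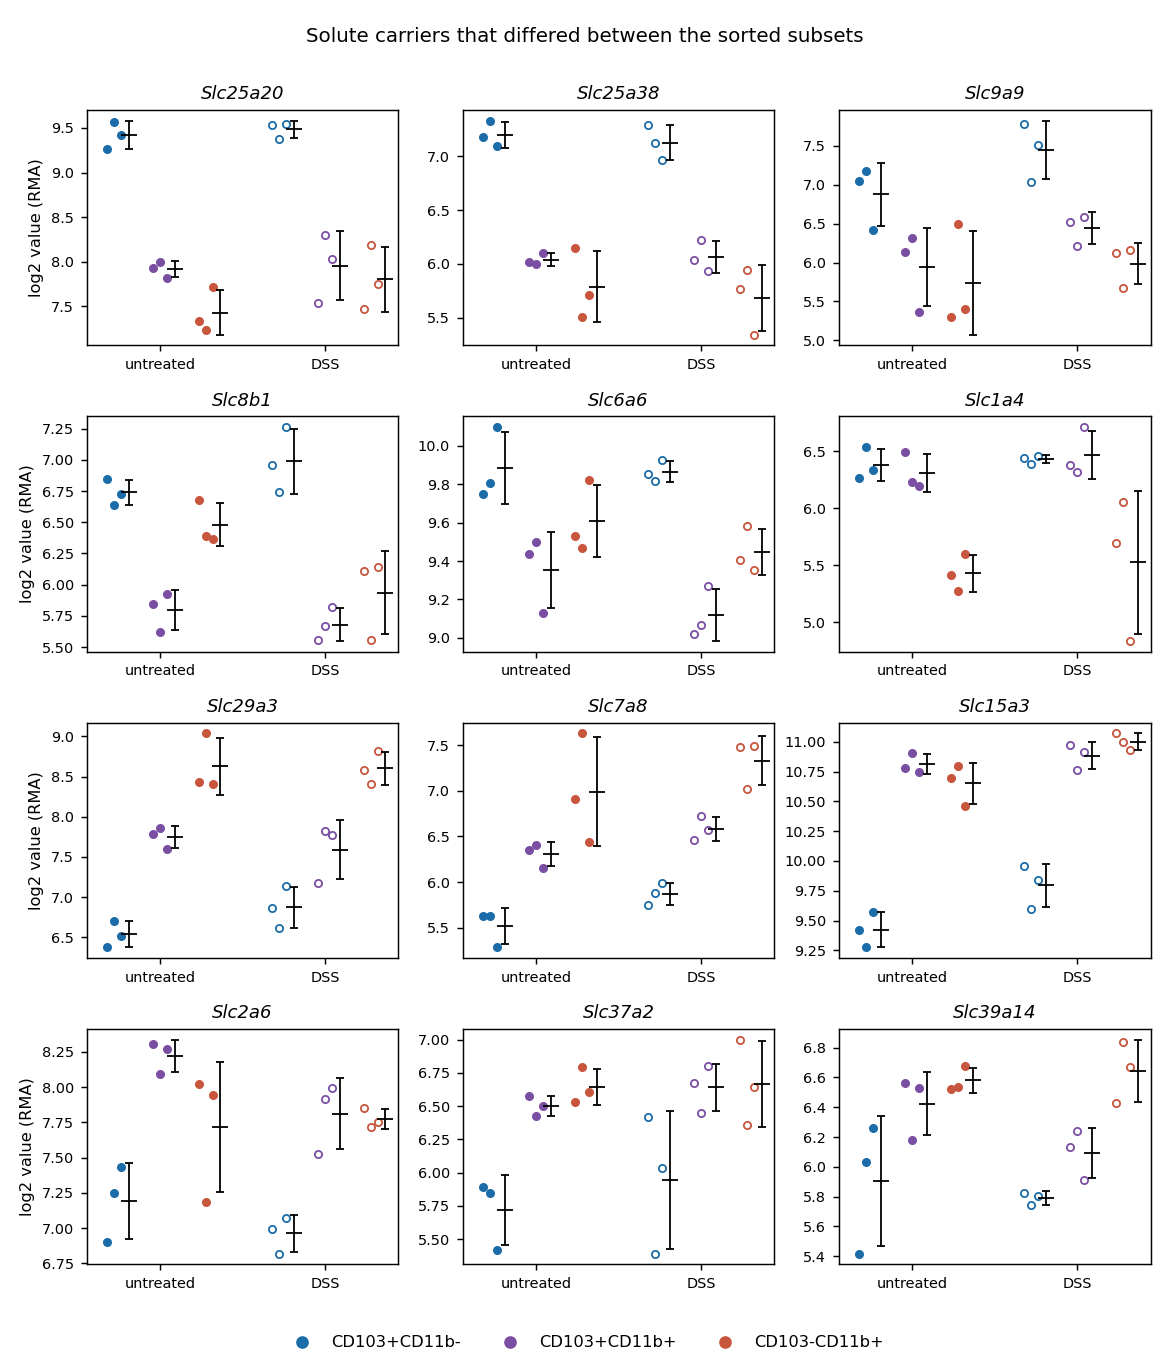
Log2 values of 12 members on each array in the 3 subsets of untreated (filled) and DSS (open) mice; bars give the mean ± SD of 3 arrays, and each panel has its own vertical axis. In Slc25a20 every CD103+CD11b- array lies at 9.26 or more and every other array at 8.30 or less, and in Slc29a3 the order of the subsets is the reverse.

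Among the mitochondrial carriers, Slc25a20 (probe set 10589076) separated CD103+CD11b- cells from all others. It encodes the carnitine-acylcarnitine carrier, which brings fatty acids joined to carnitine into the mitochondrial matrix for oxidation. Its untreated values were 9.26, 9.57 and 9.42 in CD103+CD11b- cells, 7.93, 7.99 and 7.82 in CD103+CD11b+ cells and 7.34, 7.24 and 7.71 in CD103-CD11b+ cells. In DSS cells they were 9.53, 9.37 and 9.54 in CD103+CD11b- cells, 7.53, 8.30 and 8.03 in CD103+CD11b+ cells and 7.47, 8.19 and 7.74 in CD103-CD11b+ cells. The 6 CD103+CD11b- arrays lay above the other 12 in every case, while the CD11b+ subsets overlapped after DSS. The difference was 1.99 ± 0.19 (SE; adjusted p = 5.49e-07) against untreated CD103-CD11b+ cells, a 3.98-fold difference, and 1.51 ± 0.19 (SE; adjusted p = 2.85e-05) against CD103+CD11b+ cells. After DSS it was 1.68 ± 0.19 (SE; adjusted p = 5.93e-06) and 1.53 ± 0.19 (SE; adjusted p = 3e-05). Because it showed the largest rise among the 70 members tested, its promoter is printed here from RefSeq (GRCm38.p6, chr9:108661886-108662185, plus strand), 250 bases before to 50 bases after the start.
Slc25a20: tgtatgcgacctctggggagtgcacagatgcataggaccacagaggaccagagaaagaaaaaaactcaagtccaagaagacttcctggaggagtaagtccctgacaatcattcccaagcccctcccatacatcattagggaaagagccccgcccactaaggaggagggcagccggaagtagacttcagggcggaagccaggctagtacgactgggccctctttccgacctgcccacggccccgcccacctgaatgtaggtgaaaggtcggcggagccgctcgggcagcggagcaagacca

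Slc25a38 (probe set 10590245), the carrier of glycine into mitochondria for heme synthesis, showed the same order. Untreated values were 7.18, 7.33 and 7.09 in CD103+CD11b- cells, 6.02, 5.99 and 6.11 in CD103+CD11b+ cells and 6.15, 5.5 and 5.71 in CD103-CD11b+ cells. After DSS they were 7.29, 7.13 and 6.97 in CD103+CD11b- cells, 6.04, 6.23 and 5.93 in CD103+CD11b+ cells and 5.76, 5.94 and 5.34 in CD103-CD11b+ cells. All 6 CD103+CD11b- arrays again lay above the other 12. Slc25a38 differed by 1.41 ± 0.17 (SE; adjusted p = 7.45e-06) and 1.16 ± 0.17 (SE; adjusted p = 0.000119) from CD103-CD11b+ and CD103+CD11b+ cells of untreated mice, and by 1.45 ± 0.17 and 1.06 ± 0.17 after DSS. Slc25a51 (probe set 10512709), known in human cells as the mitochondrial carrier of NAD+, had its highest group means in CD103+CD11b+ cells. Between CD103+CD11b+ and CD103-CD11b+ cells it differed by 0.57 ± 0.19 in untreated and 0.49 ± 0.19 in DSS mice. It was called in neither condition there (limma adjusted p of 0.108 and 0.307). It read 6.84, 6.41 and 7.05 in untreated CD103+CD11b- cells and 7.52, 7.35 and 7.69 in CD103+CD11b+ cells, which did not overlap. Its difference was -0.75 ± 0.19 (SE; adjusted p = 0.0155), and -0.90 ± 0.19 (SE; adjusted p = 0.00428) after DSS. The untreated call did not hold without untreated CD103+CD11b+ replicate 3 or untreated CD103+CD11b- replicate 2 (adjusted p of up to 0.097). Slc25a4, an ADP/ATP exchanger, was called after DSS, at 0.51 ± 0.14 (SE; adjusted p = 0.0209) between CD103+CD11b- and CD103-CD11b+ cells, against 0.36 ± 0.14 (SE; adjusted p = 0.119) in untreated cells. The difference between conditions was itself not called, and the DSS call did not hold without DSS CD103+CD11b- replicate 5 or 6 or DSS CD103-CD11b+ replicate 6 (adjusted p of up to 0.102).

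The other 10 of the 14 mitochondrial carriers tested were called in no subset comparison. They include Slc25a5, the more widely expressed ADP/ATP exchanger, whose group means spanned 0.13, Slc25a36, a pyrimidine nucleotide carrier, at 0.14, and the phosphate carrier Slc25a3 at 0.21. The citrate carrier Slc25a1, the oxoglutarate carrier Slc25a11, the glutathione importer Slc25a39 and the iron carrier Slc25a28 were also not called, nor were Slc25a24, an ATP-magnesium and phosphate carrier, Slc25a44 and Slc25a46. Between the untreated CD103+CD11b- and CD103-CD11b+ subsets, the calls among mitochondrial carriers were 2 higher and 0 lower of 14, with a median difference of 0.07, against 18.1% of the genes with a mean of 6 or more.

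Slc29a3 (probe set 10369379), which moves nucleosides out of lysosomes, ran in the opposite direction and stepped up from subset to subset. In untreated cells its values were 6.38, 6.70 and 6.52 in CD103+CD11b- cells, 7.79, 7.86 and 7.60 in CD103+CD11b+ cells and 8.44, 9.04 and 8.41 in CD103-CD11b+ cells. In DSS cells they were 6.87, 6.61 and 7.13 in CD103+CD11b- cells, 7.17, 7.83 and 7.77 in CD103+CD11b+ cells and 8.59, 8.40 and 8.82 in CD103-CD11b+ cells. The 3 untreated subsets did not overlap, and neither did the 3 DSS subsets. The difference between CD103+CD11b- and CD103-CD11b+ cells was -2.09 ± 0.20 (SE; adjusted p = 4.23e-07) in untreated mice, 4.26-fold lower, and -1.73 ± 0.20 (SE; adjusted p = 5.7e-06) after DSS. Between CD103+CD11b- and CD103+CD11b+ cells it was -1.21 ± 0.20 (SE; adjusted p = 0.000369) and -0.72 ± 0.20 (SE; adjusted p = 0.0344), and between CD103+CD11b+ and CD103-CD11b+ cells -0.88 ± 0.20 (SE; adjusted p = 0.015) and -1.01 ± 0.20 (SE; adjusted p = 0.0106). Of these calls, the DSS one against CD103+CD11b+ cells was lost without DSS CD103+CD11b+ replicate 5 or 6 or DSS CD103+CD11b- replicate 4 or 5 (adjusted p of up to 0.171) or in a fit on only these 2 groups (adjusted p = 0.0657). The call between CD11b+ subsets was lost in untreated cells without untreated CD103+CD11b+ replicate 3 or untreated CD103-CD11b+ replicate 2 (adjusted p of up to 0.0898), with array quality weights (adjusted p = 0.0511) or in a fit on only these 2 groups (adjusted p = 0.071), and in DSS cells without DSS CD103+CD11b+ replicate 4 or DSS CD103-CD11b+ replicate 6 (adjusted p of up to 0.0744). The mean of the macrophage markers moved in the same order, from 5.68 over 6.39 to 7.42 in untreated cells, and its part in the Slc29a3 result was not tested. As that of the largest fall among the 70 members, its RefSeq promoter (GRCm38.p6, chr10:60752733-60753032, minus strand) is printed in the same window.
Slc29a3: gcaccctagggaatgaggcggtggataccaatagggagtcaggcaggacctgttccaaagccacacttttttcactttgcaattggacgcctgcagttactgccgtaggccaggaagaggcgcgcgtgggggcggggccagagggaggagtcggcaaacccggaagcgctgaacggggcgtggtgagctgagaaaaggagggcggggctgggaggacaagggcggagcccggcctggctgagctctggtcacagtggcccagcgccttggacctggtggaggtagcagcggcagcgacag

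Slc15a3 (probe set 10461558), a lysosomal carrier of histidine and small peptides, was low in CD103+CD11b- cells. Its untreated values were 9.42, 9.28 and 9.57 in CD103+CD11b- cells, 10.78, 10.91 and 10.74 in CD103+CD11b+ cells and 10.69, 10.80 and 10.46 in CD103-CD11b+ cells. After DSS they were 9.95, 9.60 and 9.84 in CD103+CD11b- cells, 10.98, 10.76 and 10.91 in CD103+CD11b+ cells and 11.07, 11 and 10.93 in CD103-CD11b+ cells. Each CD103+CD11b- array lay below each CD11b+ array of either condition. Slc15a3 differed by -1.23 ± 0.13 (SE; adjusted p = 1.73e-06) from untreated CD103-CD11b+ cells and by -1.39 ± 0.13 (SE; adjusted p = 7.1e-07) from CD103+CD11b+ cells, and by -1.20 ± 0.13 and -1.09 ± 0.13 after DSS. Between the CD11b+ subsets the differences were 0.16 ± 0.13 (SE; adjusted p = 0.604) and -0.12 ± 0.13 (SE; adjusted p = 0.914). Slc49a4, another protein of the lysosomal membrane, differed by -0.43 ± 0.13 (SE; adjusted p = 0.0348) between the untreated CD103+CD11b- and CD103-CD11b+ subsets and by -0.48 ± 0.13 (SE; adjusted p = 0.0174) after DSS. The untreated Slc49a4 call did not hold without untreated CD103+CD11b- replicate 1 or 2 or untreated CD103-CD11b+ replicate 1 or 3 (adjusted p of up to 0.149) or in a fit on only these 2 groups (adjusted p = 0.135), and the DSS call without DSS CD103+CD11b- replicate 5 or 6 or DSS CD103-CD11b+ replicate 4 (adjusted p of up to 0.113) or in a fit on only these 2 groups (adjusted p = 0.0755).

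Genes that work beside these lysosomal carriers were read from a list of transporter partners and endosomal sensors, of which 11 were tested. Between the untreated CD103+CD11b- and CD103-CD11b+ subsets 2 were higher and 3 lower, with a median difference of -0.27 over the list. The background called was 10.3% of all genes tested and 18.1% of the genes with a mean of 6 or more. Tlr9, the receptor for DNA in endosomes, differed by -0.84 ± 0.19, and Tlr7, the receptor for single-stranded RNA, by -1.57 ± 0.24, with a CD103+CD11b- mean of 3.42 that lay under the filter level of 3.51. Irf5, a transcription factor downstream of these receptors, was higher by 0.71 ± 0.14, and the growth kinase Mtor by 0.60 ± 0.14. Emb, the chaperone of monocarboxylate carriers, differed by -1.15 ± 0.24.

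Among the 14 amino acid and amine carriers tested, 2 were higher and 1 lower comparing the CD103+CD11b- with the CD103-CD11b+ subset of untreated mice, against 18.1% of the genes with a mean of 6 or more, and the median difference was -0.02. The lower one was Slc7a8 (probe set 10419854), a light chain that exchanges neutral amino acids in partnership with Slc3a2. Untreated Slc7a8 values were 5.63, 5.63 and 5.29 in CD103+CD11b- cells, 6.35, 6.40 and 6.16 in CD103+CD11b+ cells and 6.91, 7.63 and 6.44 in CD103-CD11b+ cells. After DSS they were 5.75, 5.88 and 5.99 in CD103+CD11b- cells, 6.46, 6.72 and 6.57 in CD103+CD11b+ cells and 7.48, 7.02 and 7.49 in CD103-CD11b+ cells. The CD103+CD11b- arrays lay lowest and the CD103-CD11b+ arrays highest in both conditions, without overlap of the 3 subsets. Slc7a8 differed by -1.48 ± 0.22 (SE; adjusted p = 8.53e-05) in untreated and -1.45 ± 0.22 (SE; adjusted p = 0.000114) in DSS cells, 2.78-fold and 2.74-fold lower in CD103+CD11b- cells. Against untreated CD103+CD11b+ cells it differed by -0.79 ± 0.22 (SE; adjusted p = 0.03), a call lost without untreated CD103+CD11b+ replicate 1 or 2 or untreated CD103+CD11b- replicate 1, 2 or 3 (adjusted p of up to 0.144). After DSS that Slc7a8 difference was -0.71 ± 0.22 (SE; adjusted p = 0.0623). The partner Slc3a2 was called in no comparison, and its group means spanned 0.23.

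The higher ones were the family 1 carriers of neutral amino acids. Slc1a4 (probe set 10384539), which carries alanine, serine and cysteine, was high in both CD103+ subsets. It read 6.26, 6.54 and 6.34 in CD103+CD11b- cells, 6.5, 6.23 and 6.19 in CD103+CD11b+ cells and 5.42, 5.27 and 5.6 in CD103-CD11b+ cells of untreated mice. After DSS it read 6.45, 6.39 and 6.46 in CD103+CD11b- cells, 6.38, 6.32 and 6.71 in CD103+CD11b+ cells and 5.69, 6.06 and 4.84 in CD103-CD11b+ cells. The 6 untreated CD103+ arrays lay above the 3 CD103-CD11b+ arrays, as did the DSS ones, although 1 DSS CD103-CD11b+ array read 6.06 and another 4.84. In untreated mice CD103-CD11b+ cells were exceeded by 0.95 ± 0.22 (SE; adjusted p = 0.00594) in CD103+CD11b- and by 0.88 ± 0.22 (SE; adjusted p = 0.0243) in CD103+CD11b+ cells, and after DSS by 0.90 ± 0.22 (SE; adjusted p = 0.00978) and 0.94 ± 0.22 (SE; adjusted p = 0.0305). The untreated call between CD11b+ subsets did not hold without untreated CD103+CD11b+ replicate 1 or 2 or untreated CD103-CD11b+ replicate 1 or 2 (adjusted p of up to 0.106) or with array quality weights (adjusted p = 0.0526). After DSS the call against CD103+CD11b- cells was lost without DSS CD103-CD11b+ replicate 6 (adjusted p = 0.053) or in a fit on only these 2 groups (adjusted p = 0.0643), and the call between CD11b+ subsets without DSS CD103+CD11b+ replicate 4, 5 or 6 or DSS CD103-CD11b+ replicate 4 or 6 (adjusted p of up to 0.148) or in a fit on only these 2 groups (adjusted p = 0.172). Without DSS CD103-CD11b+ replicate 6 these Slc1a4 differences were 0.55 and 0.59. Slc1a5, the main carrier of glutamine of this family, differed by 0.69 ± 0.16 (SE; adjusted p = 0.00772) between the untreated CD103+CD11b- and CD103-CD11b+ subsets, a call lost without untreated CD103-CD11b+ replicate 2 (adjusted p = 0.0527). Its DSS difference was 0.47 ± 0.16 (SE; adjusted p = 0.0867).

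Slc6a6 (probe set 10540122), the taurine carrier, had its lowest group means in CD103+CD11b+ cells. Between CD103+CD11b+ and CD103-CD11b+ cells it differed by -0.25 ± 0.14 in untreated and -0.33 ± 0.14 in DSS mice. It was called in neither condition there (limma adjusted p of 0.399 and 0.428). It read 9.75, 9.81 and 10.10 in CD103+CD11b- cells, 9.44, 9.50 and 9.13 in CD103+CD11b+ cells and 9.53, 9.47 and 9.82 in CD103-CD11b+ cells of untreated mice. In DSS cells it read 9.85, 9.82 and 9.93 in CD103+CD11b- cells, 9.02, 9.06 and 9.27 in CD103+CD11b+ cells and 9.41, 9.58 and 9.35 in CD103-CD11b+ cells. CD103+CD11b- and CD103+CD11b+ arrays did not overlap in either condition. The difference between them was 0.53 ± 0.14 (SE; adjusted p = 0.0247) in untreated cells, a call lost without untreated CD103+CD11b+ replicate 3 or untreated CD103+CD11b- replicate 3 (adjusted p of up to 0.143) or in a fit on only these 2 groups (adjusted p = 0.106), and 0.75 ± 0.14 (SE; adjusted p = 0.00178) after DSS. Slc7a5, the large neutral amino acid exchanger that feeds leucine to cells, differed by 0.53 ± 0.14 (SE; adjusted p = 0.043) between the untreated CD103+CD11b+ and CD103-CD11b+ subsets, and the arginine carrier Slc7a1 by 0.52 ± 0.14 (SE; adjusted p = 0.0458). After DSS these differences were 0.31 ± 0.14 and 0.23 ± 0.14, and neither was called (limma adjusted p of 0.479 and 0.721). The difference between conditions was itself not called. The untreated Slc7a5 call did not hold when any 1 of its 6 arrays was left out (adjusted p of up to 0.11), with array quality weights (adjusted p = 0.0904), in a fit on only these 2 groups (adjusted p = 0.146) or with quantile normalization applied again (adjusted p = 0.0871). That of Slc7a1 did not hold without untreated CD103+CD11b+ replicate 1 or 2 or untreated CD103-CD11b+ replicate 1 or 2 (adjusted p of up to 0.178), with array quality weights (adjusted p = 0.0748), in a fit on only these 2 groups (adjusted p = 0.216), with quantile normalization applied again (adjusted p = 0.143) or with the replicate block (adjusted p = 0.0734).

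Slc7a11 (probe set 10498024), which takes up cystine for glutathione synthesis in exchange for glutamate, was called between subsets of DSS mice. Its DSS values were 9.22, 9.05 and 8.65 in CD103+CD11b- cells, 9.56, 9.40 and 9.52 in CD103+CD11b+ cells and 9.71, 9.82 and 9.46 in CD103-CD11b+ cells, with no overlap between CD103+CD11b- and CD103-CD11b+ cells. The difference was -0.69 ± 0.17 (SE; adjusted p = 0.0145), and in untreated cells -0.35 ± 0.17 (SE; adjusted p = 0.271). The difference between conditions was itself not called, and that DSS call did not hold without DSS CD103+CD11b- replicate 6 or DSS CD103-CD11b+ replicate 4 or 5 (adjusted p of up to 0.103). Slc38a2, the stress-inducible carrier of small neutral amino acids, was the steadiest member: its group means spanned 0.06, with an F-test adjusted p of 0.999. Slc38a1, a glutamine carrier of the same family, spanned 0.16. Slc38a10, Slc6a14 and Slc7a6 were also called in no subset comparison, nor was Slc43a3, which is counted in this class but is not an established amino acid carrier.

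Slc7a11 and Slc1a4 are known targets of ATF4, the transcription factor of the amino acid response. Their RefSeq promoters (GRCm38.p6, chr3:50443564-50443863, minus strand for Slc7a11 and chr11:20332664-20332963, minus strand for Slc1a4) are printed in the window above, with capitals where the amino acid response element core TGATGNAA matches on either strand.
Slc7a11: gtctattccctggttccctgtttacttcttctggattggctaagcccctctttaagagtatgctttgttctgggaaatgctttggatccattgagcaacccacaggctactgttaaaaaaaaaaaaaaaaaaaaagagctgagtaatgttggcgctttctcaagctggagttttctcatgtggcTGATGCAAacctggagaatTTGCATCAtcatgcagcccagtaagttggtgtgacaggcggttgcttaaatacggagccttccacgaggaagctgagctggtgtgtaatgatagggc
Slc1a4: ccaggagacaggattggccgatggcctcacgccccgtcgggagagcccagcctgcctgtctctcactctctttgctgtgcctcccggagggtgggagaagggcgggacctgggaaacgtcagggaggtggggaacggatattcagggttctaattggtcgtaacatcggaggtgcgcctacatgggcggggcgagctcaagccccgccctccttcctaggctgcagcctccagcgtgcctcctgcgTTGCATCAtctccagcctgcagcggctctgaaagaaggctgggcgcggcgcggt
The matches begin 66 and 47 bases before the start in Slc7a11 and 4 bases before it in Slc1a4. A match is a description of letters, not of binding. Of 15 tested genes of the ATF4 response outside the family, 6 were higher and 1 lower in the untreated CD103+CD11b- subset than in the CD103-CD11b+ subset. Their median difference was 0.42. In that comparison 10.3% of all genes tested and 18.1% of the genes with a mean of 6 or more were called. The higher genes of the list include Chac1, a glutathione-degrading enzyme, at 0.64 ± 0.15, Psat1 of serine synthesis at 0.65 ± 0.17 and Eif4ebp1, which represses translation, at 0.66 ± 0.12. The lower one was Ddit4, an inhibitor of mTOR, at -1.0 ± 0.19. Against CD103+CD11b+ cells the list had 0 higher and 1 lower, beside 6.86% of all genes and 12.2% of those with a mean of 6 or more. Between CD11b+ subsets it had 3 higher and 0 lower in CD103+CD11b+ cells, beside 4.11% and 7.23%. Slc7a11 is also a target of the antioxidant factor NRF2. Of 12 other NRF2 genes, 2 were higher and 0 lower in the first comparison, among them Gclc of glutathione synthesis at 0.56 ± 0.16. The shares called there were 10.3% of all genes and 18.1% of those with a mean of 6 or more. The NRF2 list had 3 higher and 0 lower between CD103+CD11b+ and CD103-CD11b+ cells, with Gclc at 0.80 ± 0.16 and glutathione reductase Gsr at 0.69 ± 0.14. The shares were 4.11% of all genes and 7.23% of those with a mean of 6 or more.

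Of the 7 inorganic ion carriers tested, 2 were higher and 0 lower when untreated CD103+CD11b- cells were set against CD103-CD11b+ cells, against 18.1% of the genes with a mean of 6 or more, with a median difference of 0.09. Both exchange protons for sodium or potassium inside organelles. Slc9a9 (probe set 10587854), of recycling endosomes, read 7.04, 7.17 and 6.42 in CD103+CD11b- cells, 6.14, 6.32 and 5.37 in CD103+CD11b+ cells and 5.30, 6.5 and 5.41 in CD103-CD11b+ cells. In DSS cells it read 7.78, 7.04 and 7.51 in CD103+CD11b- cells, 6.52, 6.21 and 6.59 in CD103+CD11b+ cells and 6.12, 5.68 and 6.16 in CD103-CD11b+ cells. The CD103+CD11b- and CD103-CD11b+ groups overlapped in untreated mice, through 1 CD103-CD11b+ array at 6.5, and not after DSS. Slc9a9 differed by 1.14 ± 0.30 (SE; adjusted p = 0.0166) in untreated cells, a call lost without untreated CD103+CD11b- replicate 1 or 2 or untreated CD103-CD11b+ replicate 1 or 3 (adjusted p of up to 0.0936) or in a fit on only these 2 groups (adjusted p = 0.0526), and by 1.46 ± 0.30 (SE; adjusted p = 0.0028) in DSS cells. Slc9a7, of the trans-Golgi network, differed by 0.65 ± 0.16 (SE; adjusted p = 0.0121) in untreated and 0.68 ± 0.16 (SE; adjusted p = 0.0102) in DSS cells, where the call did not hold without DSS CD103+CD11b- replicate 6 or DSS CD103-CD11b+ replicate 5 (adjusted p of up to 0.0677). Against untreated CD103+CD11b+ cells it differed by 0.74 ± 0.16 (SE; adjusted p = 0.006), and after DSS by 0.52 ± 0.16 (SE; adjusted p = 0.0689).

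Slc8b1 (probe set 10525086), which returns calcium from mitochondria to the cytosol in exchange for sodium, was lowest in CD103+CD11b+ cells. In untreated mice it read 6.85, 6.64 and 6.73 in CD103+CD11b- cells, 5.84, 5.62 and 5.92 in CD103+CD11b+ cells and 6.68, 6.39 and 6.37 in CD103-CD11b+ cells. After DSS it read 6.96, 6.74 and 7.26 in CD103+CD11b- cells, 5.55, 5.67 and 5.82 in CD103+CD11b+ cells and 6.11, 5.55 and 6.14 in CD103-CD11b+ cells. CD103+CD11b+ arrays were below both other subsets in untreated mice, and after DSS 2 of the 3 CD103-CD11b+ arrays stayed above them while 1, at 5.55, did not. The difference between CD103+CD11b- and CD103+CD11b+ cells was 0.94 ± 0.17 (SE; adjusted p = 0.000908) and 1.31 ± 0.17 (SE; adjusted p = 3.53e-05). Between CD103+CD11b- and CD103-CD11b+ cells it was 0.26 ± 0.17 (SE; adjusted p = 0.457) in untreated and 1.05 ± 0.17 (SE; adjusted p = 0.000239) in DSS cells. Between the untreated CD103+CD11b+ and CD103-CD11b+ subsets it was -0.68 ± 0.17 (SE; adjusted p = 0.0237), a call lost without untreated CD103+CD11b+ replicate 1 or 2 or untreated CD103-CD11b+ replicate 1 or 2 (adjusted p of up to 0.109) or in a fit on only these 2 groups (adjusted p = 0.0951). After DSS the difference between the CD11b+ subsets was -0.26 ± 0.17 and was not called (limma adjusted p = 0.749). Slc20a1 for phosphate, Slc26a2 for sulfate, Slc4a2 for bicarbonate and the Golgi exchanger Slc9a8 were called in no subset comparison.

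Of the 13 metal carriers tested, 0 were called higher and 2 lower comparing the CD103+CD11b- with the CD103-CD11b+ subset of untreated mice, against 18.1% of the genes with a mean of 6 or more called either way, and the median difference was -0.15. Slc39a14, which imports zinc, manganese and unbound iron, read 5.42, 6.03 and 6.26 in CD103+CD11b- cells, 6.56, 6.18 and 6.53 in CD103+CD11b+ cells and 6.52, 6.54 and 6.68 in CD103-CD11b+ cells. After DSS Slc39a14 read 5.82, 5.74 and 5.81 in CD103+CD11b- cells, 6.13, 6.24 and 5.91 in CD103+CD11b+ cells and 6.43, 6.84 and 6.67 in CD103-CD11b+ cells. CD103+CD11b- arrays lay below CD103-CD11b+ arrays in both conditions. The difference was -0.68 ± 0.18 (SE; adjusted p = 0.018), and -0.86 ± 0.18 (SE; adjusted p = 0.00339) after DSS. That untreated call did not hold without untreated CD103+CD11b- replicate 1 or untreated CD103-CD11b+ replicate 3 (adjusted p of up to 0.126) or in a fit on only these 2 groups (adjusted p = 0.0914), and without CD103+CD11b- replicate 1 the difference itself was -0.43. Slc39a6, another zinc importer, differed by -0.59 ± 0.14 (SE; adjusted p = 0.00974), a call lost without untreated CD103+CD11b- replicate 2 (adjusted p = 0.0681) or in a fit on only these 2 groups (adjusted p = 0.0523). Slc48a1, which exports heme from the phagolysosome, differed by -0.82 ± 0.21 (SE; adjusted p = 0.0222) between the untreated CD103+CD11b- and CD103+CD11b+ subsets, a call lost without untreated CD103+CD11b+ replicate 1 or 2 or untreated CD103+CD11b- replicate 3 (adjusted p of up to 0.148) or in a fit on only these 2 groups (adjusted p = 0.0504). Slc31a2, a copper carrier of endosomes, differed by -0.74 ± 0.19 (SE; adjusted p = 0.0346) between the untreated CD103+CD11b+ and CD103-CD11b+ subsets, a call lost without untreated CD103+CD11b+ replicate 1 or 2 or untreated CD103-CD11b+ replicate 2 or 3 (adjusted p of up to 0.135), with array quality weights (adjusted p = 0.115) or in a fit on only these 2 groups (adjusted p = 0.0699). After DSS, Slc39a6, Slc48a1 and Slc31a2 differed in the same comparisons by -0.34 ± 0.14, -0.32 ± 0.21 and -0.29 ± 0.19. None of these was called (limma adjusted p of 0.191, 0.575 and 0.746), and the difference between conditions was itself not called. The copper importer Slc31a1, the zinc exporters Slc30a1, Slc30a4, Slc30a7 and Slc30a9, the magnesium carrier Slc41a1 and the zinc carriers Slc39a1, Slc39a7 and Slc39a9 were called in no subset comparison. Beside them, the 4 genes of zinc-binding metallothioneins and their activator had 0 calls against CD103-CD11b+ cells, with a median difference of -0.22. Against CD103+CD11b+ cells 1 was lower, Mt2 at -0.53 ± 0.13, beside 6.86% of all genes and 12.2% of those with a mean of 6 or more.

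Slc2a6 (probe set 10481164), a hexose carrier of lysosomes, had its highest untreated group mean in CD103+CD11b+ cells. Between the untreated CD103+CD11b+ and CD103-CD11b+ subsets it differed by 0.51 ± 0.19, which was not called (limma adjusted p = 0.175). It read 6.90, 7.25 and 7.43 in CD103+CD11b- cells, 8.30, 8.09 and 8.27 in CD103+CD11b+ cells and 8.02, 7.18 and 7.94 in CD103-CD11b+ cells. After DSS it read 7.0, 6.82 and 7.07 in CD103+CD11b- cells, 7.52, 7.92 and 7.99 in CD103+CD11b+ cells and 7.86, 7.72 and 7.75 in CD103-CD11b+ cells. CD103+CD11b- arrays lay below all CD103+CD11b+ arrays in both conditions, and 1 untreated CD103-CD11b+ array, at 7.18, fell among the CD103+CD11b- arrays. Slc2a6 differed by -1.03 ± 0.19 (SE; adjusted p = 0.00149) from untreated CD103+CD11b+ cells and by -0.85 ± 0.19 (SE; adjusted p = 0.00884) after DSS, the latter lost without DSS CD103+CD11b+ replicate 6 (adjusted p = 0.0549). Against DSS CD103-CD11b+ cells it differed by -0.81 ± 0.19 (SE; adjusted p = 0.00903), and in untreated cells by -0.52 ± 0.19 (SE; adjusted p = 0.106). Slc37a2, a sugar phosphate exchanger of the endoplasmic reticulum, differed by -0.92 ± 0.21 (SE; adjusted p = 0.00644) between the untreated CD103+CD11b- and CD103-CD11b+ subsets. In DSS cells Slc37a2 differed by -0.72 ± 0.21 (SE; adjusted p = 0.0379), with 1 array of each group overlapping, and the call did not hold without DSS CD103+CD11b- replicate 5 or 6 or DSS CD103-CD11b+ replicate 4 or 6 (adjusted p of up to 0.239) or in a fit on only these 2 groups (adjusted p = 0.133). Without DSS CD103+CD11b- replicate 5 the Slc37a2 difference was -0.44. Against untreated CD103+CD11b+ cells Slc37a2 differed by -0.78 ± 0.21 (SE; adjusted p = 0.0284), Slc39a6 by -0.52 ± 0.14 (SE; adjusted p = 0.0338) and Slc49a4 by -0.43 ± 0.13 (SE; adjusted p = 0.0427). After DSS these differences were -0.70 ± 0.21, -0.30 ± 0.14 and -0.32 ± 0.13, and none was called (limma adjusted p of 0.0619, 0.32 and 0.183). The untreated calls were sensitive to single arrays: that of Slc37a2 did not hold without untreated CD103+CD11b+ replicate 1, 2 or 3 or untreated CD103+CD11b- replicate 3 (adjusted p of up to 0.156) or with array quality weights (adjusted p = 0.0575), that of Slc39a6 without untreated CD103+CD11b+ replicate 1 or 2 or untreated CD103+CD11b- replicate 2 or 3 (adjusted p of up to 0.164) or in a fit on only these 2 groups (adjusted p = 0.118) and that of Slc49a4 when any 1 of its 6 arrays was left out (adjusted p of up to 0.175), in a fit on only these 2 groups (adjusted p = 0.124) or with quantile normalization applied again (adjusted p = 0.0976).

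Slc23a2 (probe set 10487906), the ascorbate carrier, read 7.30, 7.12 and 7.34 in CD103+CD11b- cells, 7.44, 7.52 and 7.58 in CD103+CD11b+ cells and 7.65, 8.07 and 7.61 in CD103-CD11b+ cells of untreated mice. It differed by -0.53 ± 0.15 (SE; adjusted p = 0.033) between the untreated CD103+CD11b- and CD103-CD11b+ subsets, a call lost without untreated CD103+CD11b- replicate 1, 2 or 3 or untreated CD103-CD11b+ replicate 2 (adjusted p of up to 0.174), with array quality weights (adjusted p = 0.0637) or in a fit on only these 2 groups (adjusted p = 0.107). After DSS the Slc23a2 difference was -0.43 ± 0.15 and was not called (limma adjusted p = 0.0995). Slc44a2, a choline carrier, was called between CD103+CD11b- and CD103-CD11b+ cells of DSS mice at -0.56 ± 0.14 (SE; adjusted p = 0.0169), lost without DSS CD103+CD11b- replicate 4 or DSS CD103-CD11b+ replicate 5 or 6 (adjusted p of up to 0.095). Between these subsets of untreated mice it was not called, and the difference between conditions was itself not called. The relatives Slc44a1 and Slc44a4 were not called between subsets, nor were Slc16a6, Slc37a1 and the sugar carrier Slc50a1. The gene for the bile acid exporter subunit Slc51a differed by -0.78 ± 0.23 (SE; adjusted p = 0.0466) between the untreated CD103+CD11b- and CD103+CD11b+ subsets, a call lost without untreated CD103+CD11b+ replicate 1 or 2 or untreated CD103+CD11b- replicate 1 or 3 (adjusted p of up to 0.231), with no filter on low values (adjusted p = 0.0605), in a fit on only these 2 groups (adjusted p = 0.0518) or with quantile normalization applied again (adjusted p = 0.0578). After DSS the Slc51a difference was -0.11 ± 0.23 and was not called (limma adjusted p = 0.913). The difference between conditions was itself not called. Slc51a is known from gut epithelium, where the protein works, and the epithelial markers averaged 8.21 in untreated CD103+CD11b- and 8.59 in CD103+CD11b+ cells. Their part in the Slc51a difference was not tested. None of the 7 carriers of nucleotide sugars and relatives was called in a subset comparison, among them Slc35a4, Slc35d1, Slc35e1, Slc35f5, Slc35f6, the GDP-fucose carrier Slc35c1 and Slc35b1, known in human cells to bring ATP into the endoplasmic reticulum. Slc35f5 was called only by the F test over the 6 groups (adjusted p = 0.0482). That call was lost when any 1 of the 18 arrays was left out (adjusted p of up to 0.139). It was also lost with limma's trend and robust options (adjusted p = 0.0757) and with quantile normalization applied again (adjusted p = 0.0765). In Slc35a4 1 array, untreated CD103-CD11b+ replicate 2, read 9.56 where the others of its group read 8.05 and 7.72.

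**Figure D3:**
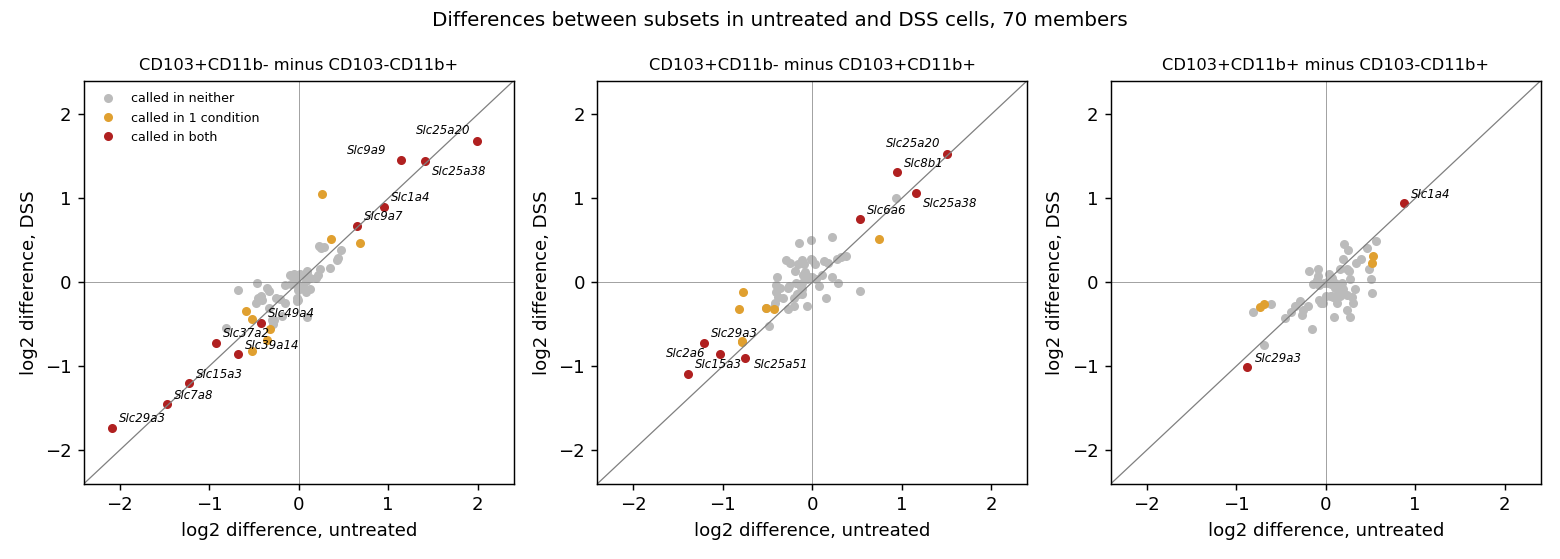
Log2 difference between subsets in untreated (horizontal) and DSS cells (vertical) for the 70 members, 1 panel per pair of subsets; red points were called in both conditions the same way and are named, orange in 1, grey in neither, and the line marks equal differences. The named points lie in the upper right or lower left, Slc25a20 at 1.99 and 1.68 and Slc29a3 at -2.09 and -1.73 in the first panel.

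The differences between subsets were set side by side for untreated and DSS mice, whose arrays are not shared. Between CD103+CD11b- and CD103-CD11b+ cells, 11 members were called in both conditions, 5 higher (Slc1a4, Slc25a20, Slc25a38, Slc9a7 and Slc9a9) and 6 lower (Slc15a3, Slc29a3, Slc37a2, Slc39a14, Slc49a4 and Slc7a8). This is 78.6% of the untreated and 68.8% of the DSS calls, against 64% and 81% among all genes with a mean of 6 or more, so the members' share lay above that of the genes for the untreated and below it for the DSS calls. Between CD103+CD11b- and CD103+CD11b+ cells 8 were called in both, 53.3% of the untreated and 100% of the DSS calls, against 60.8% and 71.2% among those genes. Higher were Slc25a20, Slc25a38, Slc6a6 and Slc8b1, and lower were Slc15a3, Slc25a51, Slc29a3 and Slc2a6. Between the CD11b+ subsets Slc1a4 was higher and Slc29a3 lower in CD103+CD11b+ cells in both, 33.3% and 100% of the calls against 30.3% and 79.7%. In none of the 3 pairs was a member called in opposite directions. Across the 70 members, which are not independent replicates, the untreated and DSS differences correlated at 0.93, 0.88 and 0.70, and across the genes with a mean of 6 or more at 0.90, 0.85 and 0.71.

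The 17 members with a mean under 6 over all arrays are described by their values, with no test, since each had to be high in some group to be included. Of these, 10 reached 6 in 1 group, 4 in 2 groups and 3 in 3 groups. The widest span was that of Slc33a1 (probe set 10498485), which carries acetyl-CoA into the endoplasmic reticulum: 2.01 between its highest and lowest group means. In untreated cells it read 6.36, 6.45 and 6.62 in CD103+CD11b- cells, 5.01, 5.00 and 4.71 in CD103+CD11b+ cells and 4.80, 4.56 and 4.06 in CD103-CD11b+ cells. In DSS cells it read 6.5, 6.65 and 6.31 in CD103+CD11b- cells, 4.97, 4.51 and 5.15 in CD103+CD11b+ cells and 5.10, 4.66 and 5.08 in CD103-CD11b+ cells. All 6 CD103+CD11b- arrays lay above 6 and all 12 others below. Its RefSeq promoter (GRCm38.p6, chr3:63964684-63964983, minus strand) is shown for comparison with that of Slc25a20, which was also highest in CD103+CD11b- cells. It holds 1 E-box, CACGTG, in capitals, beginning 125 bases before the start, and the Slc25a20 window printed above holds none of the 6 motifs searched.
Slc33a1: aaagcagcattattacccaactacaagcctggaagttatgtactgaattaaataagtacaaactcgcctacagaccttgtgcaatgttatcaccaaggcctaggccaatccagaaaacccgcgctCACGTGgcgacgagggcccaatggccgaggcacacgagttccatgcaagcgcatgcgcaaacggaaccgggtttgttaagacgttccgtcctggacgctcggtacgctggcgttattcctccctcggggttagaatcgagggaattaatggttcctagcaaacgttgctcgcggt

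Slc46a3, a lysosomal carrier, averaged 6.47 ± 0.10 (SD, n = 3) in untreated CD103+CD11b- cells and 6.65 ± 0.10 after DSS, while its other 4 group means lay between 4.96 and 5.19. Slc22a5, which brings carnitine into the cell and so works upstream of Slc25a20, read 6.23, 5.79 and 5.95 in CD103+CD11b- cells, 5.35, 4.94 and 5.22 in CD103+CD11b+ cells and 5.54, 5.02 and 5.45 in CD103-CD11b+ cells. In DSS cells Slc22a5 read 6.15, 6.23 and 6.01 in CD103+CD11b- cells, 5.76, 5.57 and 5.19 in CD103+CD11b+ cells and 4.76, 4.40 and 4.79 in CD103-CD11b+ cells. The CD103+CD11b- arrays were the highest of each condition, and the DSS CD103-CD11b+ arrays the lowest. Slc4a11, of the bicarbonate carrier family, was highest in CD103-CD11b+ cells, at 5.76 ± 0.29 in untreated and 6.45 ± 0.19 in DSS mice, against 5.02 ± 0.39 and 4.86 ± 0.29 in CD103+CD11b- cells. Slc7a7, an exporter of cationic amino acids, averaged 6.08 ± 0.35 and 5.82 ± 0.28 in CD103-CD11b+ cells and 4.53 and 4.86 in CD103+CD11b- cells. Slc9a3r2, a scaffold and no carrier, reached 6 only in untreated CD103-CD11b+ cells, at 5.91, 6.53 and 5.88.

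Smaller spans were those of the magnesium carrier Slc41a2 at 0.88, the creatine carrier Slc6a8 at 0.79, the nucleotide sugar carrier Slc35a3 at 0.69, Slc25a45 at 0.65, the dicarboxylate carrier Slc25a10 at 0.63 and the zinc importer Slc39a10 at 0.59. Slc41a2 averaged 5.20 ± 0.39 in untreated CD103+CD11b- cells and 6.08 ± 0.18 in DSS CD103-CD11b+ cells, and Slc6a8 5.44 ± 0.08 and 6.22 ± 0.23 in untreated CD103+CD11b- and CD103-CD11b+ cells. Slc35a3 averaged 6.08 ± 0.28 in CD103+CD11b- and 5.53 ± 0.13 in CD103+CD11b+ cells of untreated mice. The lysosomal arginine sensor Slc38a9, the chloride carrier Slc12a2, the zinc carrier Slc39a13, Slc22a18 and the inositol carrier Slc5a3 spanned 0.46, 0.36, 0.35, 0.34 and 0.27.

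**Figure D4:**
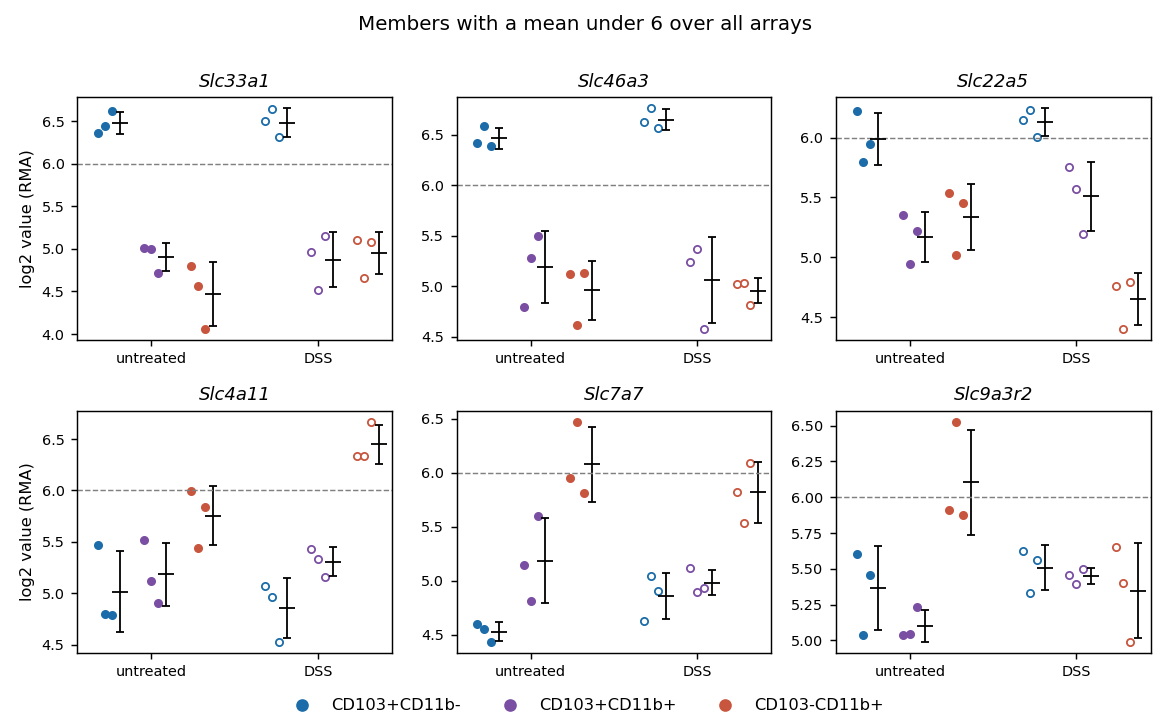
Log2 values of 6 of the 17 members whose mean over all arrays is under 6, in untreated (filled) and DSS (open) cells of the 3 subsets, with the mean ± SD of 3 arrays; the dashed line is the level of 6 of the rule. Slc33a1, Slc46a3 and Slc22a5 are highest in CD103+CD11b- cells, and Slc4a11 and Slc7a7 in CD103-CD11b+ cells.

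DSS against untreated cells gave 0 called members in the CD103+CD11b-, the CD103+CD11b+ and the CD103-CD11b+ subset, and 0 over all subsets, fitted on experiment means, by limma. The background was as low: 0.242%, 0.0743% and 0.0929% of the genes with a mean of 6 or more were called in the subsets and 0.204% over all (0.129%, 0.0857%, 0.1% and 0.186% of all genes tested). In CD103+CD11b+ cells that was 0.0558% higher and 0.0186% lower. At an unadjusted p under 0.05 there were 6, 9 and 7 members in the subsets, or 8.57%, 12.9% and 10%, against 6.75%, 11.2% and 9.94% of the genes with a mean of 6 or more. Over all subsets there were 12, or 17.1% against 12.3%. Groups did not overlap in 13, 13 and 7 of the 70 members, against 14.7%, 16.9% and 14.2% of genes. Over all subsets, on experiment means, they did not overlap in 13 of the 70 members, against 19% of genes. The members' share was above that of the genes in the CD103+CD11b- and CD103+CD11b+ subsets, and below it in the CD103-CD11b+ subset and over all subsets. Each of these differences in share amounts to a few members at most, and none was tested. The lowest adjusted p in the subsets was 0.448, 0.297 and 0.346, so with 3 arrays a group a change with DSS was not detected in these members.

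The 6 members of lowest p over all subsets are given here, chosen after their values were seen. Slc23a2, the ascorbate carrier, had experiment means of 7.46, 7.57 and 7.51 in untreated and 8.10, 7.77 and 7.93 in DSS cells, which do not overlap. The difference was 0.42 ± 0.10 (SE; adjusted p = 0.193) over all subsets, and 0.52 ± 0.15, 0.30 ± 0.15 and 0.43 ± 0.15 in the CD103+CD11b-, the CD103+CD11b+ and the CD103-CD11b+ subset. Slc15a3 had experiment means of 10.30, 10.33 and 10.26 against 10.67, 10.45 and 10.56, a difference of 0.26 ± 0.09 (SE; adjusted p = 0.35). Slc25a4, the ADP/ATP exchanger, differed by 0.23 ± 0.08 (SE; adjusted p = 0.368). Slc37a1, a relative of Slc37a2 at the endoplasmic reticulum, differed by -0.34 ± 0.09 (SE; adjusted p = 0.22). The sodium-coupled amino acid carrier Slc6a14 had experiment means of 6.37, 6.65 and 6.13 against 5.95, 5.91 and 5.96, a difference of -0.44 ± 0.12 (SE; adjusted p = 0.258). Slc44a4, which takes up a thiamine phosphate in the colon, differed by -0.41 ± 0.15 (SE; adjusted p = 0.377). Slc6a14 and Slc44a4 are known from epithelium. The means of the 14 epithelial markers in the 3 subsets were 8.21, 8.59 and 8.40 in untreated and 7.85, 8.15 and 8.11 in DSS cells, with a median difference of -0.39 over all subsets and 0 of 14 called, and their part in these differences was not tested.

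**Figure D5:**
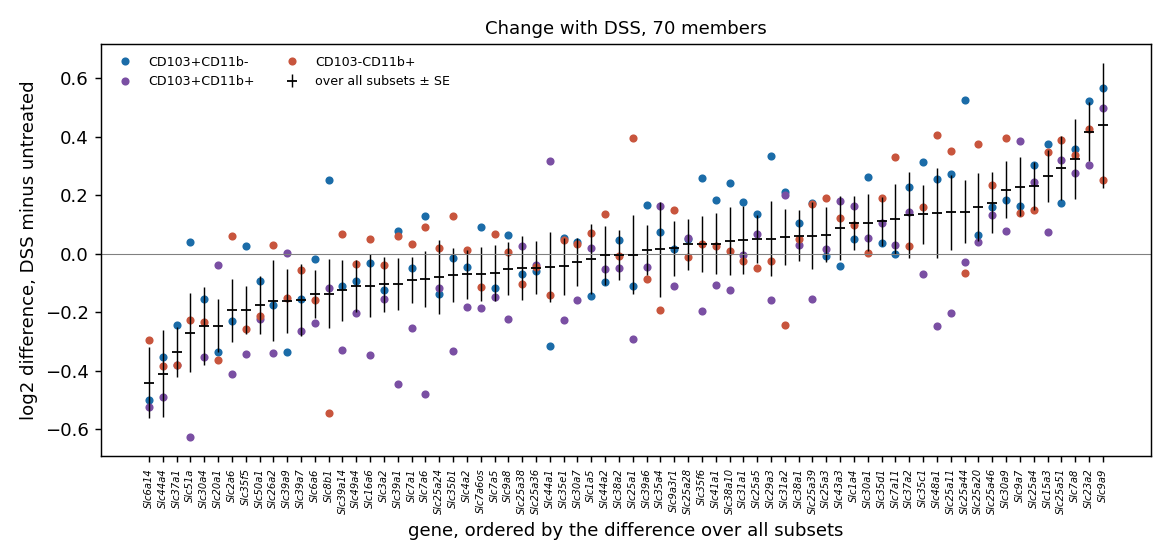
Log2 difference between DSS and untreated cells for the 70 members, ordered by the difference over all subsets (black bar, ± SE); coloured points are the differences within each subset. No member was called, and the outermost differences over all subsets are Slc6a14 at -0.44 and Slc9a9 at 0.44.

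Whether the change with DSS differed between subsets was tested as an interaction, with 0 members called in any of the 3 pairs and a background of 0% of genes. At an unadjusted p under 0.05 there were 1, 2 and 4 members, or 1.43%, 2.86% and 5.71%, against 3.18%, 5.41% and 5.93% of the genes with a mean of 6 or more. The lowest p was that of Slc8b1, whose difference between DSS and untreated cells was 0.25 ± 0.17 in CD103+CD11b- and -0.55 ± 0.17 (SE; adjusted p = 0.346) in CD103-CD11b+ cells, a difference of changes of 0.80 ± 0.24 (adjusted p = 1 by limma). Slc7a6, an exchanger of cationic and neutral amino acids, had differences of 0.13 ± 0.15 in CD103+CD11b- and -0.48 ± 0.15 in CD103+CD11b+ cells, with a difference of changes of 0.61 ± 0.22 (adjusted p = 0.983 by limma). These are values and not calls.

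Transporters outside the family were read beside the members. Of 13 tested, 2 were higher and 6 lower in the untreated CD103+CD11b- subset than in the CD103-CD11b+ subset. The background called was 10.3% of all genes tested and 18.1% of those with a mean of 6 or more. Slco3a1, an organic anion carrier, differed by 1.78 ± 0.17 (SE; adjusted p = 4.71e-07), and Cd36, which takes up fatty acids, by 1.26 ± 0.20 (SE; adjusted p = 0.00025). Abca1, which exports cholesterol, differed by -2.35 ± 0.21 (SE; adjusted p = 2.19e-07), and its relative Abcg1 by -1.08 ± 0.20. Of the 9 solute carriers left out, 8 were tested, of which 0 were higher and 3 lower in the same comparison, with the same background: the lactate exporter Slc16a3 at -1.5 ± 0.19, the arginine carrier Slc7a2 at -0.64 ± 0.20 and the glucose carrier Slc2a1 at -0.44 ± 0.13. With DSS, Slc7a2 was called higher in CD103-CD11b+ cells, at 1.10 ± 0.20 (SE; adjusted p = 0.0422).

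Promoter windows from RefSeq (GRCm38.p6) were found for 68 of the 87 members and searched on both strands for 6 motifs. The amino acid response element core TGATGNAA stood in 6 of the 68, or 8.82%, against 4.06% of all 27025 promoters of that length, namely in Slc1a4, Slc49a4, Slc50a1, Slc7a11, Slc7a7 and Slc9a9. The core of the antioxidant response element, TGACNNNGC, stood in 16, or 23.5%, against 12.5%. The E-box CACGTG was in 10.3% against 7.24%, the AP-1 site TGANTCA in 10.3% against 7.93%, the ETS-IRF composite (GGAA and GAAA with NN between) in 2.94% against 2.79% and the interferon-stimulated element core (TTTC and TTTC with NN between) in 1.47% against 3.49%. These motifs can overlap in part. The shares describe letters in these windows and were not tested.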

How the data were processed

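Gene expression was measured on 18 Affymetrix arrays, 3 for each of 6 groups. The authors deposited 1 table of log2 values for which the submitters' processing notes name RMA, a method that adjusts background, applies quantile normalization and summarises the probes of a probe set. The RMA version and software are not given in the sources used here. Of 34760 probe sets, 21640 had 1 symbol in the platform annotation, 1321 several and 11799 none. Of the first, 21553 matched the reference gene table, and the rest kept their platform symbol. Together they gave 19937 genes with 1 probe set each, the one of highest mean. Genes above the 40th percentile of all values (3.51) in at least 3 arrays were tested, 14003 in all.

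Groups were compared with limma 3.58.1 (lmFit and eBayes) in R 4.3.3, with 1 mean per group over all 18 arrays, and p-values were adjusted by Benjamini-Hochberg over the 14003 genes. This fit did not pair the subsets of an experiment. A fit that did gave somewhat more calls in each subset comparison, as listed below. The difference with treatment over all subsets was fitted on the mean of each experiment. The members, the gene lists and the carrier classes were chosen with earlier results of these data known. Genes named are up to 10 called members each way per subset comparison, up to 6 each way per treatment comparison, those of lowest p in each difference of changes, the lowest and highest F-test p per class, the 15 widest spans among members under a mean of 6, up to 4 called genes a list, and the neighbours of the level of 6. Members outside these were named to account for all of them.

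The array titles give an experiment number that the 3 subsets of a condition share. Deviations from group means of same-numbered arrays correlated between -0.03 and 0.32 (median 0.25, 8 of 9 pairs over 0.1) in untreated and between 0.11 and 0.31 (median 0.18, 9 of 9) in DSS cells, against medians of -0.12 and -0.13 for arrays of other numbers. Deviations from a group mean cancel within the group, so the negative medians follow from the positive ones and are no separate evidence. A fit with the number as a replicate block was an alternative. On simulated data of 14003 genes with known changes between the untreated CD103+CD11b- and CD103-CD11b+ subsets, 18 of 67 genes changed by 0.5 were recovered, 61 of 67 changed by 1 and 66 of 66 changed by 2, with 12 false calls. The simulated noise was independent between arrays, and fewer genes were changed than were called in the real comparison. These rates therefore need not hold for the real arrays. Figures were drawn with matplotlib 3.10.9.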

Additional observations from a re-analysis of the deposited data

How the results depend on the processing

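With members taken by a mean of 6.5 or more (48 members), the calls were 7, 9 and 3 for the 3 untreated subset comparisons in the order above, 8 for CD103+CD11b- against CD103-CD11b+ and 1 for CD103+CD11b+ against CD103-CD11b+ cells after DSS, and 12 in the F test, since fewer members were counted. In fits on only the groups compared, which use fewer arrays, there were 9 for untreated CD103+CD11b- against CD103-CD11b+ cells, and 1 each for the CD11b+ subsets of untreated and of DSS mice. Array quality weights, an alternative added after the data were seen, gave 1 for the untreated CD11b+ subsets and 14 for CD103+CD11b- against CD103+CD11b+ cells after DSS, and the cause was not tested. Leaving out 1 array at a time gave 10 to 13, 9 to 12 and 0 to 6 calls in untreated, 11 to 15, 6 to 9 and 0 to 2 in DSS cells and 18 to 22 in the F test. The 0 in the untreated CD11b+ subsets came without CD103-CD11b+ replicate 2, and the 0 after DSS without CD103+CD11b+ replicate 4. The replicate block gave 15, 17 and 7 calls in untreated and 17, 12 and 3 in DSS cells. It ended the call of Slc7a1 between untreated CD11b+ subsets (adjusted p = 0.0734) and no other named call. Treatment comparisons and differences of changes had 0 calls under each alternative run. Of 81 named calls, 46 held under every alternative, 35 were lost under at least 1 and 0 reversed. No detection calls were used, so values near the filter level of 3.51 were not set against background.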
